A study of Danio rerio with 69 samples.

Results

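The zebrafish brain was compared at 10 days (10d) and 3 days (3d) of age, with 5 days (5d) as the point between. Brain here means the brain with the pineal gland and the eyes taken out, and the comparison covers the 19 larval brain arrays among the 69 arrays of a study of the zebrafish pineal gland. They were chosen by age and tissue alone. The 3d brain was represented by 3 arrays sampled by day and 4 by night, the 5d brain by 3 and 2, and the 10d brain by 3 and 4. All fish, at every age, carried a transgene in which the promoter of aanat2 drives green fluorescent protein to mark the pineal, and all were kept at 28.5 °C with 14 h of light and 10 h of dark. Each sample was hybridised to its own Affymetrix Zebrafish Genome Array, and the labels call the samples of a group biological replicates without giving the number of animals pooled. The p-values measure the spread between samples within a group, pooled over all 20 groups of the 69 arrays, pineal and adult ones included. The small number of arrays per group limits their precision.

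Between these ages the larva uses up its yolk, begins to swim and feed, and meets the light and dark cycle as an animal with working eyes. In the brain, the dividing progenitors of the embryo give way to neurons that extend axons, build synapses and are wrapped by oligodendrocytes. Genes of the circadian clock and those switched on by light, by neuronal activity or by hormones act in this tissue as well.

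The brain label was checked against marker genes. Levels are log2(intensity + 16) after quantile normalisation, so that a level of 4 stands for an intensity of 0 and changes of genes near it depend on the added constant. The neuronal gene snap25b, a part of the machinery of transmitter release, lay between 12.59 and 13.22 at 10d and between 12.16 and 13.15 at 3d. Its pineal means were 12.91 at 10d and 12.72 at 3d, so it does not tell brain from pineal. The pineal enzyme gene aanat2 stayed at or below 6.99 at 10d and at or below 6.60 at 3d. Pineal arrays began at 6.41 at 10d and 6.13 at 3d, so the tissues overlapped. The pineal gene gngt1 kept them apart, at 4.47 to 6.92 in brain and 10.48 to 12.40 in pineal at 10d. At 3d it ranged from 6.90 to 8.97 in brain and from 12.73 to 13.62 in pineal. Markers of other tissues were far from absent. The muscle parvalbumin gene pvalb1 had a median level of 13.19 at 10d and of 14.16 at 3d, the cartilage gene matn1 one of 7.50 at 10d and of 13.18 at 3d, and the skin keratin gene krt5 one of 11.24 at 10d and of 12.59 at 3d. The pancreatic enzyme gene prss1 had a higher median at 10d, at 10.63 (7.19 to 11.31), than at 3d, at 6.96 (6.02 to 12.70), and the ages overlapped. The larval brain samples therefore held transcripts of muscle, cartilage, skin and pancreas. In a bulk sample fewer cells of a type and less RNA per cell cannot be told apart.

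Across the 15502 probe sets tested, correlations between arrays of one age ranged from 0.901 to 0.957 at 3d, from 0.887 to 0.950 at 5d and from 0.918 to 0.938 at 10d. The 10d and 3d arrays correlated at 0.846 to 0.895 with each other. The GAPDH control probe sets, read as 3′ over 5′ signal to gauge RNA integrity, reached 6.09 on 3d brain day replicate 1 and 5.70 on 5d brain day replicate 2, and lay between 1.51 and 2.52 at 10d. Leaving out all arrays above 3 gave 2031 called probe sets for 10d against 3d, against 1858 with all arrays. The 5d brain day replicates 1 and 2 stood apart from the other 5d arrays, and results that rest on them are given with and without them. Without them the 5d day group is replicate 3 alone. That array correlated at a mean of 0.892 with its own group and of 0.921 with the 3d arrays. Results without the pair therefore rest on a single day array and cannot tell which 5d day arrays were typical.

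From 3d to 10d, many genes on the lists of the clock and light response, of immediate early and stress genes and of neuropeptides rose, and many on those of cell division, chromatin, muscle and cartilage fell. With day and night at equal weight, 818 probe sets rose (5.28% of those tested) and 1040 fell (6.71%) by limma, where a call needed a 2-fold change and an adjusted p under 0.05. Counted as genes, each of 8793 genes being read from its brightest probe set, 460 rose (5.23%) and 750 fell (8.53%). The median log2 change of all genes was -0.01.

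The largest rise was that of nfil3-6, a transcriptional repressor of the clock output network. It had levels of 12.87, 12.62 and 12.56 by day and 11.16, 11.63, 10.72 and 11.33 by night at 10d, against 8.28, 7.0 and 7.30 by day and 7.24, 7.24, 6.68 and 5.80 by night at 3d. Every 10d array lay above every 3d array, and at both ages the mean was higher by day. The log2 change was 4.81 ± 0.37, or 28.1-fold (standard error from limma, as for all errors below; adjusted p = 4.81e-17). A further probe set of nfil3-6 gave a smaller change of 1.53.

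Next came igfbp1b, which encodes a binding protein of insulin-like growth factors. Its levels ran from 9.04 through a median of 9.49 to 9.63 at 10d and from 4.37 through 4.61 to 6.94 at 3d. The 3d level was near the floor, and the log2 change of 4.40 ± 0.41 (limma, adjusted p = 1.84e-13) became 5.59 with an added constant of 1 and 3.13 with 64. The uncoupling protein gene ucp1, whose product dissipates the proton gradient of mitochondria, rose by 4.14 ± 0.39 (limma, adjusted p = 1.54e-13). For mknk2b, a kinase that phosphorylates the translation factor eIF4E, the rise was 4.04 ± 0.35, and its other probe sets gave 0.76 and 4.44.

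The gene npas4a, a transcription factor switched on by neuronal activity, had levels from 10.77 through 11.83 to 13.10 at 10d and from 7.42 through 8.29 to 9.63 at 3d, a log2 change of 3.56 ± 0.47 (limma, adjusted p = 1.14e-08). The gene sybu encodes syntabulin, which links kinesin to the cargo of presynaptic terminals, and it rose by 3.41 ± 0.22, its levels lying between 11.69 and 12.35 at 10d and between 8.02 and 9.06 at 3d. The smallest adjusted p among all probe sets belonged to iscub, a scaffold for the assembly of iron-sulphur clusters, with a rise of 3.32 ± 0.16 (limma, adjusted p = 4.27e-25). The antizyme gene oaz2b, an inhibitor of polyamine synthesis, rose by 3.67 ± 0.25. In each of these genes the 10d and 3d arrays did not overlap.

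The mitotic kinesin gene kif20a also stood among the 12 largest rises, at 3.54 ± 0.24, whereas most genes of cell division fell. Its other probe set gave 0.48 and was not called, so the rise belongs to 1 of its 2 probe sets and the gene's direction is uncertain.

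**Figure D1:**
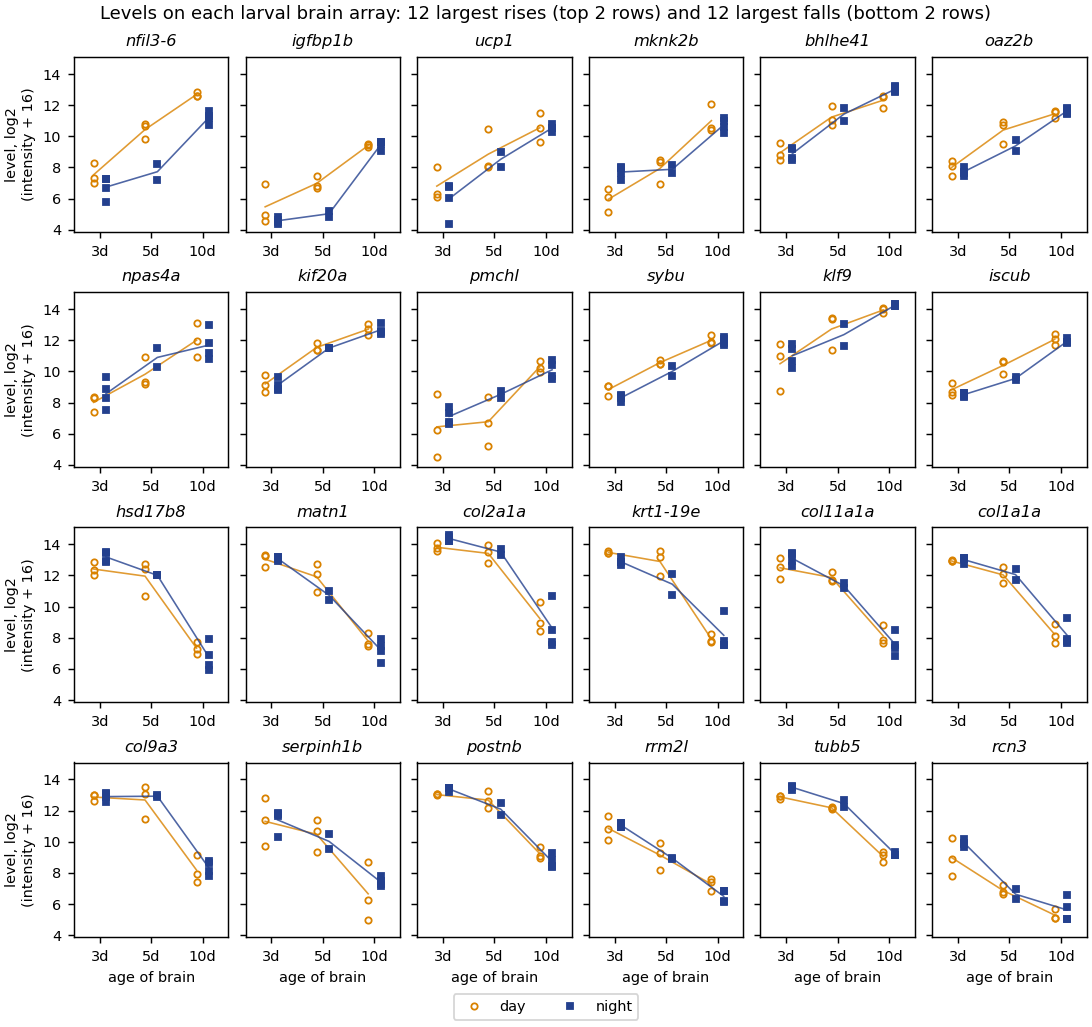
Levels of the genes with the 12 largest rises and 12 largest falls, as log2(intensity + 16), on each of the 19 larval brain arrays at 3d, 5d and 10d. Open circles are day arrays, filled squares night arrays and lines join group means; in all 24 genes the 10d arrays lie apart from the 3d arrays.

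The largest falls were in genes of cartilage, connective tissue and skin. The gene matn1 encodes matrilin 1, a protein of the cartilage matrix. Its levels ran from 6.38 through 7.50 to 8.30 at 10d and from 12.55 through 13.18 to 13.31 at 3d, and the 5d arrays had 12.08, 12.71 and 10.95 by day and 11.03 and 10.42 by night. The ages did not overlap between 10d and 3d, and the log2 change was -5.56 ± 0.38, or 47.1-fold lower (limma, adjusted p = 4.97e-19). The collagen genes col2a1a (-5.16 ± 0.36), col11a1a (-4.95 ± 0.32), col1a1a (-4.78 ± 0.31) and col9a3 (-4.63 ± 0.40) fell beside it. So did serpinh1b, a chaperone of collagen folding (-4.32 ± 0.56), postnb, a periostin of connective tissue (-4.23 ± 0.25), rcn3, a calcium-binding protein of the secretory pathway (-4.00 ± 0.41), and the keratin gene krt1-19e (-5.14 ± 0.36).

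The largest fall in size was that of a probe set assigned to hsd17b8, an enzyme of steroid and fatty acid metabolism, at -5.76 ± 0.36 (limma, adjusted p = 1.31e-20). Another hsd17b8 probe set gave -0.30 and was not called (limma, adjusted p = 0.69). The size of this gene's change is therefore uncertain. The remaining leading falls were in rrm2l, of the ribonucleotide reductase family (-4.08 ± 0.29), and in the beta tubulin gene tubb5 (-4.06 ± 0.35).

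Of 26 gene lists, the shares called are shown in the plot of gene lists, beside the shares over all genes. The lists were not tested as sets, and their counts are read against 5.23% higher and 8.53% lower among all genes. They were chosen with earlier results of these data known. Their shares therefore describe these lists and are not independent evidence that a group of genes changed more than others.

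**Figure D2:**
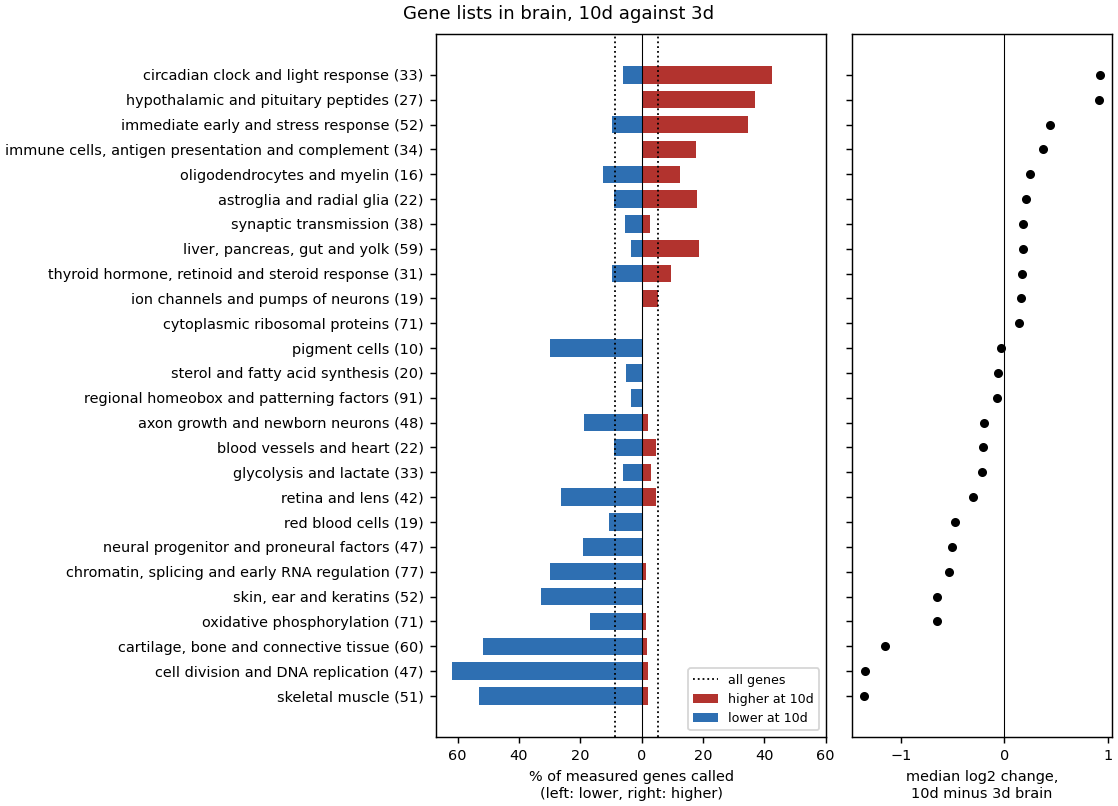
Gene lists in brain at 10d against 3d, with the number of measured genes in brackets. Bars give the percentage of measured genes called lower (left) and higher (right), dotted lines the same percentages over all genes (8.53% and 5.23%), and the right panel the median log2 change, which runs from -1.36 in skeletal muscle to 0.92 in the clock and light-response list.

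Genes of cell division and DNA replication fell. Of 47 measured, 29 fell (61.7%) and 1, kif20a, rose, and the median log2 change was -1.35. The gene tyms encodes thymidylate synthase, which makes thymidine for DNA. It had levels from 4.43 through 5.40 to 6.63 at 10d and from 8.61 through 9.23 to 10.25 at 3d, a log2 change of -3.59 ± 0.37 (limma, adjusted p = 7.46e-12). The sliding clamp of replication, pcna, fell by 2.34 on the log2 scale with a standard error of 0.23, and its levels, between 8.39 and 9.83 at 10d against 10.50 and 11.85 at 3d, did not overlap. Also lower were dut, which clears dUTP (-3.29 ± 0.29), the ribonucleotide reductase subunit rrm1 (-2.70 ± 0.26), the survivin gene birc5a (-3.54 ± 0.40), the mitotic kinase plk1 (-2.72 ± 0.32) and the proliferation marker mki67 (-2.27 ± 0.36), whose other probe sets gave -1.55 and -1.10.

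Chromatin and RNA regulators of the early embryo fell with them. Of 77 genes for chromatin, splicing and early RNA regulation, 23 fell (29.9%) and 1 rose, with a median of -0.53. The chromatin protein gene hmga1a, typical of immature cells, had levels from 12.19 through 12.48 to 12.51 at 10d and from 14.12 through 14.42 to 14.77 at 3d. Its arrays were tightly grouped at each age, and the change was -1.96 ± 0.12 (limma, adjusted p = 1.48e-20). The histone methyltransferase gene ezh2 fell by 2.53 on the log2 scale, though other probe sets of it gave -0.34 and -1.22. The histone variant h2az2b was at -2.51 ± 0.23, the RNA-binding protein gene hnrnpa0b at -1.95 ± 0.18, and uhrf1, which maintains DNA methylation, at -2.83 ± 0.33. The 1 rise was in the splicing factor sf3b1 (1.18 ± 0.14).

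Among neural progenitor and proneural factors, 9 of 47 fell (19.1%) and 0 rose, with a median of -0.51. The 9 include hmga1a, which is also counted on the chromatin list. The Notch ligand dlb was at -2.70 ± 0.43, and the proneural factors ascl1a and ascl1b were at -1.51 ± 0.23 and -2.11 ± 0.38. The radial glial gene fabp7a, for a brain fatty acid carrier, is counted on the astroglia and radial glia list and not on this one. Its levels ran from 8.80 through 9.84 to 11 at 10d and from 12.40 through 13.11 to 13.38 at 3d. The groups did not overlap, and the change was -3.12 ± 0.26 (limma, adjusted p = 1.77e-15). Its mean over the 6 adult brain arrays of 3 months was 13.27, so the 10d level lay below both the 3d and the adult level.

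Genes of axon growth and newborn neurons fell in 9 of 48 cases (18.8%) and rose in 1. The fallers were led by tubulins and a partner of theirs. The gene tubb5 was at 9.17 in the median at 10d and 13.34 at 3d, tuba1b changed by -2.76 ± 0.28, tubb2b by -1.74 ± 0.23 and dpysl5a, a regulator of growth cones, by -2.0 ± 0.26. The growth cone protein gene gap43 fell by 1.44 on the log2 scale. As with fabp7a, tubb5 was high again at 3 months, with a mean of 12.57 in brain.

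Genes of synaptic transmission changed little by comparison. Of 38 measured, 1 rose (2.63%) and 2 fell (5.26%), and the median was 0.18, with 32 above 0. The NMDA receptor subunit grin1a was higher by 1.22 ± 0.27, a call lost without 1 of the 14 arrays, and its other probe set gave 0.19. The calcium-binding protein gene calb2a fell by 1.22 on the log2 scale. Of 19 ion channels and pumps, 1 was called, and of 91 regional homeobox and patterning factors 3 fell (3.30%), or 1 without 10d brain night replicate 4, and 0 rose.

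Myelin genes moved in both directions. The myelin basic protein gene mbpa, which compacts the sheath made by oligodendrocytes, had levels of 12.61, 12.66 and 11.71 by day and 12.46, 11.81, 12.48 and 12.06 by night at 10d. At 3d it had 9.57, 9.76 and 10.45 by day and 10.89, 10.64, 9.65 and 10.58 by night. All 10d arrays were above all 3d arrays, and the change was 2.08 ± 0.41 (limma, adjusted p = 7.54e-05). The tetraspanin gene tspan2a of oligodendrocytes rose by 1.13 ± 0.21. The peripheral myelin genes pmp22a and pmp22b, which connective tissue also expresses, fell by 2.08 and 2.02 on the log2 scale. Another probe set of pmp22b gave -0.998 and was not called. In all, 2 of 16 genes on this list rose and 2 fell. The summed intensity of the list ranged from 10807 to 16979 at 10d and from 7694 to 11396 at 3d.

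Of 22 genes of astroglia and radial glia, 4 rose (18.2%) and 2 fell (9.09%). The prostaglandin D2 synthase genes ptgdsb.2 and ptgdsb.1 rose by 2.36 ± 0.24 and 1.90 ± 0.32. The gene ndrg3a rose by 1.25 ± 0.15. The glutamine synthetase gene glula, at 1.01 ± 0.15, fell short of 2-fold without any 1 of 5 arrays. The 2 falls were in fabp7a, described above, at -3.12, and in the membrane glycoprotein gene gpm6bb, at -1.67 on the log2 scale.

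Neuropeptides and secretory granule proteins rose. All 27 measured genes of hypothalamic and pituitary peptides had a change above 0, and 10 passed the test (37.0%), with a median of 0.91. With an added constant of 64, 6 passed. The precursor gene pmchl, for a melanin-concentrating hormone, had levels from 9.54 through 10.24 to 10.77 at 10d and from 4.51 through 6.79 to 8.56 at 3d. The change was 3.43 ± 0.48 (limma, adjusted p = 4.71e-08). Growth hormone, gh1, made by the pituitary, ranged from 10.41 to 11.07 at 10d and from 7.62 to 8.67 at 3d, a change of 2.63 ± 0.44 (limma, adjusted p = 3.76e-06). Its 5d arrays were spread from 4.55 to 9.51, with 5d brain day replicate 1 the lowest, and its mean in brain was 5.44 at 3 months. The secretogranin genes scg2a (2.02 ± 0.20), scg5 (1.36 ± 0.19) and scg3 (1.19 ± 0.19), for proteins of dense-core granules, rose too. So did the peptide genes nmba, sst6.1, uts1, npb and npy, by 1.01 to 1.42. Of these, the calls of nmba and npb were lost without 1 of the 14 arrays and that of npy without any 1 of 8.

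Among genes of energy metabolism, transcripts for oxidative phosphorylation were mostly lower at 10d. Of 71 genes for oxidative phosphorylation 12 fell (16.9%) and 1 rose, and the median was -0.65. The ATP synthase gene atp5mc1 had levels from 9.12 through 10.14 to 10.44 at 10d and from 11.33 through 11.78 to 12.49 at 3d, without overlap, and changed by -1.86 ± 0.21 (limma, adjusted p = 2.10e-10). The cytochrome oxidase subunit cox5ab was at -1.83 ± 0.27 and the complex I subunits ndufa10 and ndufb5 at -1.57 ± 0.22 and -1.15 ± 0.17. The 1 rise was in cox17, a copper chaperone (1.24 ± 0.21). At 3 months the mean of atp5mc1 in brain was 11.93, again near the 3d level. Of 33 genes of glycolysis and lactate 2 fell and pdk2b, a kinase that inhibits pyruvate dehydrogenase, rose by 3.03 ± 0.44. Of 71 cytoplasmic ribosomal protein genes, 0 were called in either direction with limma, and 16 rose at an adjusted p below 0.05 without the fold limit. The most abundant, rpl12 and rpl6, changed by 0.07 ± 0.08 and 0.12 ± 0.11.

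The clock and light-response list had the highest share of rises. Of 33 genes, 14 rose (42.4%) and 2 fell (6.06%), and the median was 0.92. The repressor gene bhlhe41 had levels of 12.55, 11.80 and 12.60 by day and 12.88, 13.23, 12.86 and 13.18 by night at 10d. At 3d the levels were 9.58, 8.46 and 8.79 by day and 8.61, 9.27, 8.49 and 9.18 by night. The gap between the ages was wider than the spread within either, and the change was 3.76 ± 0.25 (limma, adjusted p = 2.12e-19). Its relative bhlhe40 rose by 2.71 ± 0.23, the cryptochrome gene cry2 by 2.63 ± 0.23 and the damage-recognition gene ddb2, induced by light in fish, by 2.70 ± 0.21. Also higher were the activator tefa (1.76 ± 0.16), the repressors cry1a (1.68 ± 0.32) and ciarta (1.49 ± 0.25), and the light-induced genes per2 and cry-dash. The activators of the clock's positive arm were lower: bmal2 by -1.80 ± 0.38 and bmal1a by -1.42 ± 0.44, the call of bmal1a being lost without 1 of the 14 arrays.

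The light-induced clock repressor per2 was higher by day than by night at each age. It had 13.31, 13.05 and 13.07 by day and 10.81, 11.26, 10.14 and 10.61 by night at 10d, against 11.25, 11.52 and 10.55 by day and 7.96, 9.75, 8.84 and 9.52 by night at 3d. At 5d the day arrays, at 13.44, 13.55 and 12.94, overlapped those of 10d, and the night arrays, at 8.22 and 9.08, lay within the 3d night range. The 10d and 3d groups overlapped when day and night were pooled and were separate within each sampling time. Averaged over day and night the change was 1.86 ± 0.44 (limma, adjusted p = 0.000732). The gene ddb2 showed the same order at 5d, with 10.18, 10.60 and 10.36 by day and 7.65 and 8.0 by night.

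**Figure D3:**
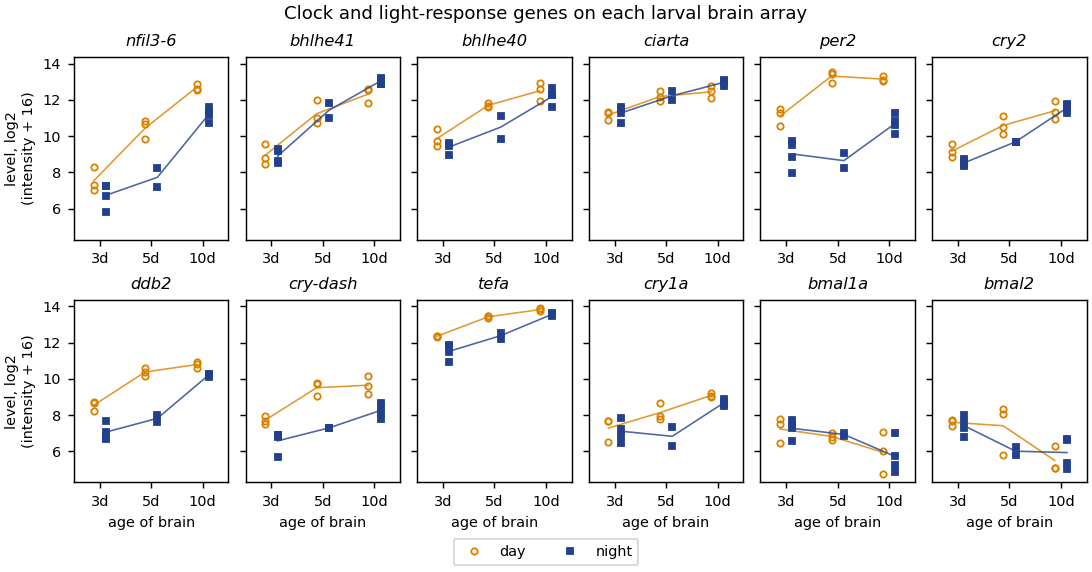
Levels of 12 clock and light-response genes, as log2(intensity + 16), on each larval brain array at 3d, 5d and 10d, with open circles for day, filled squares for night and lines through group means. For bhlhe41 all 10d arrays (11.80 to 13.23) lie above all 3d arrays (8.46 to 9.58), per2 is higher by day than by night at each age, and the means of bmal1a and bmal2 are lowest at 10d.

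Immediate early and stress genes rose in 18 of 52 cases (34.6%) and fell in 5 (9.62%), or in 3 without 3d brain day replicate 3, with a median of 0.44. Besides npas4a, the immediate early genes fosab (2.43 ± 0.49), egr4 (2.75 ± 0.47), junba (2.32 ± 0.39) and egr1 (1.75 ± 0.35) rose. The stress factor gene atf3 had levels of 9.88, 9.35 and 12.60 by day and 10.91, 11.40, 10.22 and 12.18 by night at 10d, against 7.77 to 8.75 at 3d. The groups did not overlap, although the 10d arrays were spread widely, and the change was 2.82 ± 0.34 (limma, adjusted p = 1.16e-09). In fosab, too, the 10d arrays ranged over 9.34 to 12.78, and they overlapped those of 3d. The fallers included the collagen chaperone serpinh1b, the peroxidase gene prdx2 (-1.16 ± 0.24) and sesn3 (-1.42 ± 0.21).

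Among genes that respond to thyroid hormone, retinoids and steroids, 3 of 31 rose (9.68%) and 3 fell (9.68%). The rises of klf9 and fkbp5 are also counted on the immediate early and stress list. The transcription factor gene klf9, induced by glucocorticoid and thyroid hormone, had levels from 13.74 through 14.20 to 14.32 at 10d and from 8.76 through 10.99 to 11.76 at 3d. All 10d arrays lay above those of 3d, at 3.35 ± 0.43 (limma, adjusted p = 5.45e-09). The gene fkbp5, for a co-chaperone of the glucocorticoid receptor, rose by 2.52 ± 0.40. Means at 3 months were 11.26 for klf9 and 11.20 for fkbp5, lower than at 10d. The retinoic acid carrier crabp2a fell by 1.98 on the log2 scale.

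Immune genes rose in 6 of 34 cases (17.6%) and fell in 0. There were 3 rises without 3d brain day replicate 2, 4 without 10d brain day replicate 3 and 2 with an added constant of 64. The neutrophil peroxidase gene mpx rose by 1.73 ± 0.40, although its other probe sets gave -0.03 and 0.30, and apoc1, an apolipoprotein gene, by 1.59 ± 0.36. The embryonic globin gene hbae3 fell by 2.3 on the log2 scale with a standard error of 0.36. It ranged from 11.66 to 13.06 at 3d, had 8.97, 8.68, 9.44, 10.87 and 9.60 at 5d and ranged from 9.07 to 11.31 at 10d, so that 5d and 10d overlapped and both lay below 3d.

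Many markers of muscle, cartilage and skin fell. Of 51 skeletal muscle genes 27 fell (52.9%) and 1 rose, with a median of -1.36; of 60 genes of cartilage, bone and connective tissue 31 fell (51.7%) and 1 rose (median -1.16); and of 52 genes of skin, ear and keratins 17 fell (32.7%) and 0 rose (median -0.65). The troponin gene tnnt3a of fast muscle had levels from 4.39 through 6.66 to 7.82 at 10d and from 8.59 through 10.02 to 10.09 at 3d, a change of -3.32 ± 0.46 (limma, adjusted p = 3.81e-08). The muscle genes actc1a (-3.09 ± 0.44) and myl1 (-2.97 ± 0.44) fell as well, and for actc1a the groups overlapped. In skin, krt4 was at -2.70 ± 0.36, the ictacalcin gene icn2 at -2.10 ± 0.28 and agr2 of mucous cells at -2.93 ± 0.40. Retina and lens genes fell in 11 of 42 cases (26.2%) and rose in 2, though the eyes had been removed. The falls included the green cone opsin opn1mw1 (-3.37 ± 0.44) and the cone genes gnb3b (-2.93 ± 0.39) and pde6c (-2.33 ± 0.38). The 2 rises were in another green cone opsin, opn1mw4 (1.29), and in the photoreceptor gene guca1aa (1.06). The call of opn1mw4 was lost without 1 of the 14 arrays and that of guca1aa without any 1 of 6. Pigment cell genes fell in 3 of 10 cases, with dct of melanin synthesis at -1.56 ± 0.43.

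The summed intensity of the cartilage list ranged from 10484 to 20327 at 10d and from 78269 to 124133 at 3d, without overlap. That of the skin list, at 26387 to 71996 against 78328 to 109089, did not overlap either. For muscle it ranged from 21094 to 95289 at 10d and from 79948 to 171671 at 3d. The 1 array at 10d within the 3d range was 10d brain night replicate 2, and the other 6 were at or below 70167. At 5d muscle sums ranged from 96196 to 280164, and the 3 day arrays had the highest of all 19. Of all 8793 genes tested, 8479 were on no list of another tissue. Of the 750 genes that fell, 655 were on no such list and 95 on one, as were 22 of the 40 largest falls. Of the 460 rises, 444 were on no such list and 16 on one, a share near that over all genes. The part of these tissues in the changes of genes on no such list was not tested.

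**Figure D4:**
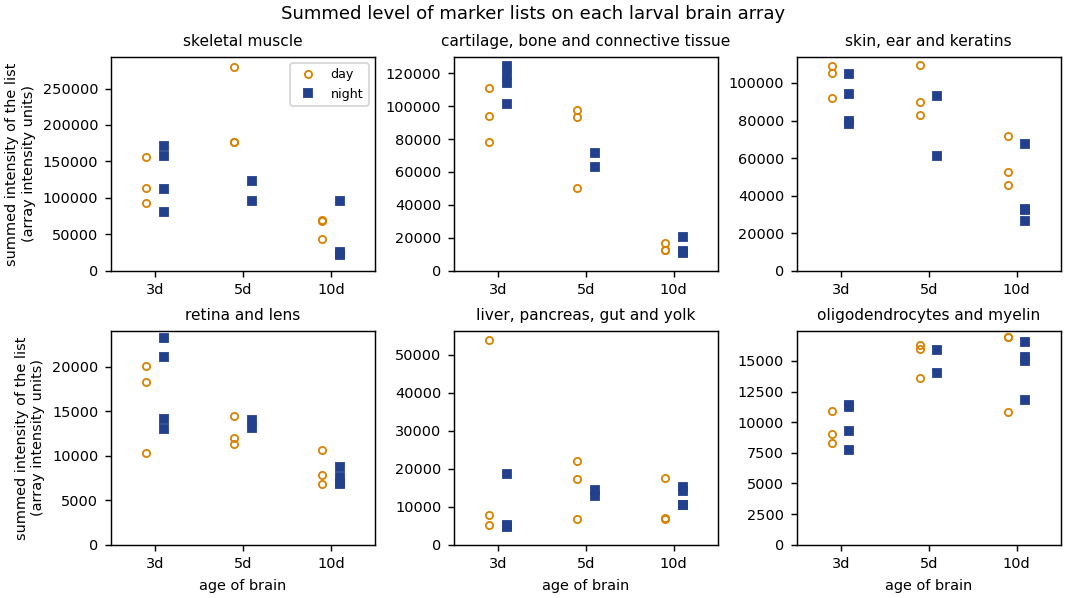
Summed intensity of 6 marker lists on each larval brain array at 3d, 5d and 10d, with open circles for day and filled squares for night. Cartilage and skin sums lie lower at 10d than at 3d on every array, the 3 day arrays of 5d have the highest muscle sums, and the myelin list is higher on all but 1 of the 10d arrays than on any 3d array.

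Of 59 genes of liver, pancreas, gut and yolk, 11 rose (18.6%) and 2 fell (3.39%). These counts rested on single arrays: with 1 array left out, 6 to 13 rose and 0 to 5 fell. Without 10d brain day replicate 2, 6 rose and 3 fell. Without 3d brain day replicate 3, 6 rose and 5 fell, and without 3d brain day replicate 1, 9 rose and 4 fell. The median of 0.17 was -0.01 without 3d brain day replicate 3. The elastase gene ela2l of the exocrine pancreas ranged from 6.42 through 9.02 to 10.20 at 10d and from 4.25 through 5.74 to 7.46 at 3d. The groups overlapped, and the change was 2.75 ± 0.47 (limma, adjusted p = 4.53e-06). The gluconeogenic enzyme gene pck1 rose by 2.04 ± 0.49. The lipoprotein lipase gene lpla rose by 3.03 ± 0.27. The list's summed intensity was 6815 to 17466 at 10d and 4647 to 53740 at 3d. The highest sum belonged to 3d brain day replicate 2.

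Most probe sets called between 3d and 10d had a 5d mean between those of the outer ages. They were chosen for a large difference between the 3d and 10d means, which by itself favours a 5d mean between them. The shares below therefore cannot show that the changes had begun by 5d. Of the 818 probe sets that rose from 3d to 10d, 714 (87.3%) had a 5d mean between those of 3d and 10d, and the median probe set had covered 43.6% of its change. Of the 1040 that fell, 857 (82.4%) were between, with a median of 33.8%. Without 5d brain day replicates 1 and 2 these medians were 44.0% and 31.3%. By limma 252 probe sets were higher (1.63%) and 238 lower (1.54%) at 5d against 3d, a split that became 322 higher and 184 lower with median centring, and 563 higher (3.63%) and 675 lower (4.35%) at 10d against 5d. The 490 calls of the first step became 835 without 5d brain day replicate 3, 285 without 5d brain night replicate 1 and 225 without 5d brain night replicate 2. These steps share the 5d arrays with each other and the 3d or 10d arrays with the whole comparison. Leaving out the pair of 5d day arrays left only 5d brain day replicate 3 by day, so the counts that follow rest on it. Without the pair of 5d day arrays the counts were 75 and 605 in all, of which 64 and 521 were among the calls made with all arrays.

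The share of the change covered by 5d is given by gene group, with no test between groups. The genes were chosen by the same 3d and 10d means, so the same limit applies. The 29 falling genes of cell division had covered a median of 48.2% of their fall (37.2% without the pair of 5d day arrays) and the 23 of chromatin and RNA regulation 62.2% (48.1%). The 14 rising clock genes had covered 51.8% (47.7%), the 10 peptide genes 43.7% (58.3%) and the 18 rising genes of the immediate early and stress list 32.7% (36.0%). Cartilage genes were at 18.9% (26.2%). The 27 falling muscle genes stood at -9.12% (-19.8%), that is, at or above their 3d level, with 15 of them outside the range from 3d to 10d on the 3d side. In atf3 the 5d arrays, at 7.89 to 8.78, lay close to the 3d range of 7.77 to 8.75, with a change of 0.31 from 3d to 5d and of 2.51 from 5d to 10d. In mbpa the steps were 1.51 from 3d to 5d and 0.57 from 5d to 10d.

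A turn at 5d, with a call in each direction, was seen in 78 of the 15502 probe sets tested, of which 36 were higher and 42 lower at 5d. Both steps use the same 5d arrays, so a stray 5d mean alone gives opposite calls. The 2 calls of a turn are therefore not independent. Without 5d brain day replicates 1 and 2 there were 8, and 6 were in both sets. The lens crystallin gene cryba4 led them. At 5d it had 6.50, 5.77 and 6.81 by day and 8.66 and 10.79 by night, against 4.42 to 6.44 at 3d and 5.04 to 6.56 at 10d. Both night arrays were above all arrays of the other ages, and the steps were 2.43 ± 0.43 up to 5d and -2.04 ± 0.43 from 5d to 10d (limma, adjusted p = 0.000115 and 0.000439). The crystallin gene crygmxl2 had 8.78 and 9.84 on the same night arrays and 4.96, 4.25 and 4.36 by day. The opposite course was taken by glb1l, a beta-galactosidase-like gene, with steps of -1.68 ± 0.37 up to 5d and 1.89 ± 0.37 from 5d to 10d. For glb1l and for crygmxl2 the call from 3d to 5d was lost without 1 of the 12 arrays.

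The age difference was also tested within each sampling time. Within day arrays limma called 592 higher (3.82%) and 705 lower (4.55%), and within night arrays 818 higher (5.28%) and 959 lower (6.19%). The test of the difference between the changes by night and by day called 0 probe sets (limma, smallest adjusted p = 0.151). At an unadjusted p below 0.05 there were 923 of the 15502 tested. An unadjusted limit passes many of so large a number without any difference, so the 923 alone cannot tell whether there was one. Nor do the 0 calls show that the changes by day and by night were alike. There were 8 calls without 3d brain day replicate 3, 4 without 10d brain day replicate 2 and 1 without 3d brain night replicate 1. In other fits of that difference 14 were called with the larval brain arrays alone and 32 with array weights.

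The change from 3d to 10d in brain was set against the same change in pineal glands, with 8 arrays at 10d and 7 at 3d. Brain and pineal arrays were not treated as pairs. limma called 55 probe sets (0.355%) for a difference between the tissues, 12 with the brain change above the pineal change (0.0774%) and 43 below it (0.277%). With a random block for age, time and replicate number the count was 112, so it depends on how the samples are matched. Those below were led by matn1, whose difference was -5.80 ± 0.53 (limma, adjusted p = 4.14e-12). In pineal matn1 ranged from 4.36 to 6.88 at 10d and from 4.71 to 6.29 at 3d. Those levels are near the floor, so a fall of matn1 in pineal had little room to show. The probe set of hsd17b8 (-5.07 ± 0.50), the cartilage collagens col10a1a (-4.91 ± 0.57) and col9a1b (-3.63 ± 0.54), tnnt3a (-3.56 ± 0.64) and the ultraviolet cone opsin opn1sw1 (-3.40 ± 0.74) followed. The 3d mean of opn1sw1 was 5.36 in pineal, also near the floor, and 8.84 in brain. By list, the muscle median was -1.36 in brain and -0.04 in pineal, with 4 genes below (0.409% among all genes) and 1 above (0.102%) in the test of the difference. Muscle genes started lower in pineal. At 3d the means of atp2a1, mylpfa, tnnt3b and pvalb1 were 5.81 to 8.17 in pineal and 12.05 to 14.24 in brain. Pineal levels had less room to fall, so the smaller change there does not show a stable level. The cartilage median was -1.16 in brain and -0.22 in pineal, with 8 genes below. In pineal alone, 19 genes of the cartilage list were called lower and 7 higher at 10d against 3d. Pineal means of col1a1a were 12.52 at 3d and 8.34 at 10d, and those of col2a1a 11.3 and 8.03. These leading falls of brain were therefore lower at 10d in pineal too. The lists of cell division (-1.35 in brain and -1.49 in pineal) and of the clock (0.92 in brain and 0.75 in pineal) are given side by side, with 0 and 2 genes called for a difference.

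The brain change exceeded that in pineal for pmchl (2.81 ± 0.66), gh1 (2.70 ± 0.62), atp2a1l, of the muscle calcium pump family (2.66 ± 0.62), sinup (2.18 ± 0.52), bhlhe41 (1.76 ± 0.35) and ca2, a carbonic anhydrase (1.64 ± 0.30). The gene bhlhe41 rose in both tissues, by 3.76 in brain and 2.00 in pineal. At 10d it ranged from 11.80 to 13.23 in brain and from 11.75 to 13.54 in pineal. At 3d it ranged from 8.46 to 9.58 in brain and from 8.88 to 12.23 in pineal. For ca2 the difference came from pineal, where it changed by -1.36 against 0.29 in brain. Leaving out single arrays of the 29 ended the call for sinup in 6 cases, pmchl in 4, atp2a1l in 3 and gh1 in 1.

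**Figure D5:**
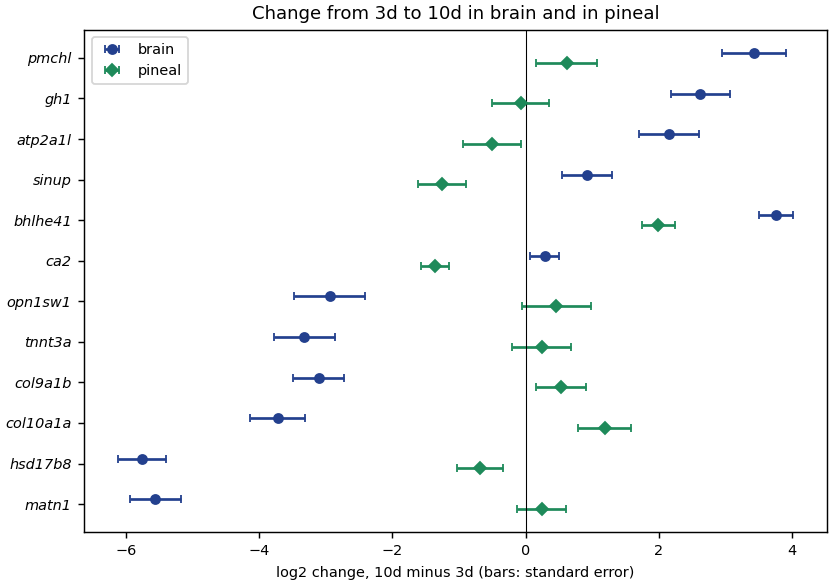
Change from 3d to 10d on the log2 scale in brain (circles) and pineal (diamonds), with standard errors, for the 6 named genes whose brain change was furthest above and the 6 whose brain change was furthest below that in pineal. For matn1 the change was -5.56 in brain and 0.24 in pineal, where its 3d mean of 5.51 was near the floor.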

How the data were processed

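The deposited series table held 1 linear intensity value per probe set and array. Its mean, without the highest and lowest 2% of values, was 500.1 to 500.2 on every array. The summarising algorithm and any background correction are not given in the sources used here. From 15617 probe sets 115 controls were left out, 16 was added, and the log2 values were quantile normalised because array medians ran from 7.03 to 7.89. The fit was made with limma 3.58.1 in R 4.3.3 on all 69 arrays as 20 group means (49 residual and 14.3 prior degrees of freedom, trend on mean level), with two-sided tests and Benjamini-Hochberg adjustment over 15502 probe sets. The script was tested on simulated data. Names came from the platform annotation: 10795 probe sets had 1 symbol, 135 several and 4572 none. Members and gene lists were chosen with earlier results of these data known. The genes named are the 12 largest rises and falls with 1 sign by day and by night, up to 4 called members of each list and direction, the 6 largest differences from pineal each way and 5 turns at 5d, with clone-type names left out. Further list members are named from the same counts, chosen after their values were seen. Named genes whose call was lost without a single array were mostly counted and not quoted. Alternatives covered scaling, the added constant, a filter, the arrays fitted, array weights, trend, replicate blocks, RNA quality, the fold limit and single arrays left out. Groups follow the labels.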

Additional observations from a re-analysis of the deposited data

Results flagged for a closer look

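Among 258 sets of values of a named gene on the 4 night arrays of 1 age, 12 (4.65%) held an array far from the other 3 by Dixon's criterion, which chance gives in about 5% of sets. In 5 of the 12 the array was 10d brain night replicate 2, which was the highest of its group: col1a1a at 9.30, krt1-19e at 9.71, krt4 at 10.52, the muscle gene tnni2b.1 at 10.05 and the neutrophil gene mpx at 10.41 in log2(intensity + 16). At 10d, hmga1a was low at 12.19 on night replicate 3 and scg2a high at 12.28 on night replicate 4. At 3d, agr2 was low at 8.15, ndufa10 low at 9.56 and ptgdsb.2 low at 9.41 on night replicate 3, and dct at 7.35 and serpinh1b at 10.34 stood apart on night replicate 4.

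By limma's test of the difference, the change from 3d to 10d in brain was above that in pineal for 9 genes (0.102%) and below it for 36 (0.409%). The 6 largest each way, with clone-type names left out, are listed here. On the log2 scale the brain change exceeded the pineal change by 2.81 for pmchl, 2.70 for gh1, 2.66 for atp2a1l, 2.18 for sinup, 1.76 for bhlhe41 and 1.64 for ca2. The difference was -5.80 for matn1, -5.07 for hsd17b8, -4.91 for col10a1a, -3.63 for col9a1b, -3.56 for tnnt3a and -3.40 for opn1sw1. With an added constant of 1 in place of 16, the calls of pmchl, gh1, atp2a1l and opn1sw1 were lost.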

How the results depend on the processing

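The count of 1858 probe sets for 10d against 3d brain was within 1.5 times under 14 of 15 alternatives and was 3302 without the fold limit, 1662 to 1946 with 1 array left out. That for 10d against 5d (1238) became 821 with an added constant of 64, 1950 without the fold limit and 605 without 5d brain day replicates 1 and 2, an alternative chosen after seeing the data (879 to 1503 with 1 array left out). That for 5d against 3d (490) became 754 with only brain arrays, 752 with array weights, 878 without the fold limit and 75 without the same pair. It was 225 (without 5d brain night replicate 2) to 835 (without 5d brain day replicate 3) with 1 array left out. The night minus day difference (0) gave 3 with only brain arrays, 14 with only larval brain arrays, 32 with array weights and 1 without arrays of a GAPDH ratio above 3, and 0 to 8 with 1 array left out. The brain minus pineal difference (55) gave 109 with a constant of 64, 93 with array weights and 95 without arrays of a GAPDH ratio above 3, and 48 to 82 with 1 array left out. The 275 calls on gene lists became 413 without the fold limit and 252 to 279 with 1 array left out. The causes were not tested. No direction of a named gene was reversed. The correlations of same-numbered arrays' deviations were -0.08 to 0.06 between 10d and 3d brain and -0.01 to 0.10 between brain and pineal of one age and time, where 3 of 14 pairs were above 0.1. Not every pair was above 0.1, so the numbers were not taken to pair the samples. This rule would miss a weak pairing of brain and pineal arrays. With the replicate number as a block the counts were 1868, 450, 1218, 0 and 62 for 10d against 3d, 5d against 3d, 10d against 5d, night minus day and brain minus pineal. A random replicate block gave 112 for brain minus pineal. For genes with a group near the floor, such as igfbp1b, the size of a change depends on the added constant.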
